A study of Mus musculus with 4 samples.

Results

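Oxidative stress defence genes encode the enzymes and binding proteins that clear superoxide, hydrogen peroxide and lipid peroxides, repair oxidised thiols and hold metal ions. A list of 35 such genes was followed by symbol in mouse heart RNA, and 32 of them had a probe set of their own among the 18193 genes measured. Where a gene had several probe sets with 1 annotated symbol, the brightest on average stands for it. Of the other 3, Prdx1 was covered only by 5 probe sets that also carry a second symbol, and Prdx5 and Prdx6 had no probe set in the annotation used, so no values are given for them. The genes were grouped as dismutases and catalase (4 measured), peroxiredoxin and thioredoxin (9 of 12), glutathione (14), metallothioneins (2), and the regulator Nfe2l2 with Hmox1 and Nqo1 (3).

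The arrays were hybridised with heart RNA from mice carrying a Sirt1 transgene, labelled Tg-Sirt1 (2 arrays), and from wild type mice, labelled NTg (2 arrays). All animals were killed with pentobarbital and the hearts were snap frozen. The sources used here give no age, sex, strain, transgene promoter or number of lines. Sirt1 is an NAD-dependent deacetylase, and the series title asks how it regulates cardiac gene expression. Values are log2 intensities after RMA, a procedure that corrects background, brings the distributions of the arrays together and gives 1 value per probe set.

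As background, superoxide dismutases turn superoxide into hydrogen peroxide, which catalase, the glutathione peroxidases and the peroxiredoxins then reduce to water. Glutathione and thioredoxin supply the electrons and are themselves reduced again with NADPH. The transcription factor Nrf2, encoded by Nfe2l2, drives many of these genes through the antioxidant response element, metallothionein genes answer to metals and glucocorticoids, and Sirt1 is known to deacetylate FoxO factors, whose targets include Cat and Sod2.

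The array labelled Tg-Sirt1 1 and the array NTg 1 were near-identical, so that the 4 arrays held 3 distinct profiles. Over all 45037 probe sets the differences within this pair had an SD of 0.0759 log2 units, against 0.342 to 0.405 in the other 5 pairs of arrays. For the 32 genes the 2 arrays of the pair differed by 0.09 log2 units at most, with a median of 0.02. Sirt1 itself read 7.16 and 7.93 in Tg-Sirt1, against 7.30 and 7.17 in NTg, so the array labelled Tg-Sirt1 1 went against its label at this probe set, and every direction between the labels below includes that array. No array was moved to another group, and values of a label are given with array 1 before array 2. The cardiomyocyte markers Myh6, Tnnt2, Tnni3, Actc1, Ryr2 and Pln read 12.24 to 13.93 on all arrays. The design text names 2 mice per label, and whether the near-identical pair came from 1 mouse or from 2 was not determined.

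No oxidative stress defence gene passed the test between the labels. In limma, with Benjamini-Hochberg adjustment over all genes, 0 of the 32 genes passed an adjusted p of 0.05 (each had 0.994), as did 0 of 18193 genes, or 0%. At an unadjusted p under 0.05 the count was also 0 of the 32, against 10 of all genes, or 0.055%. Of the 32 genes, 19 (59.4%) had the higher mean in Tg-Sirt1 and 13 (40.6%) the lower, against 53.1% and 45.8% of all genes, and the median log2 fold change was 0.065 against 0.015 over all genes. Standard errors ran from 0.14 to 0.38. With 2 arrays per label, 1 of each nearly equal to the other, missing the threshold is no evidence of equal levels. In heart tissue, fewer cells of a type and less RNA per cell cannot be told apart.

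**Figure D1:**
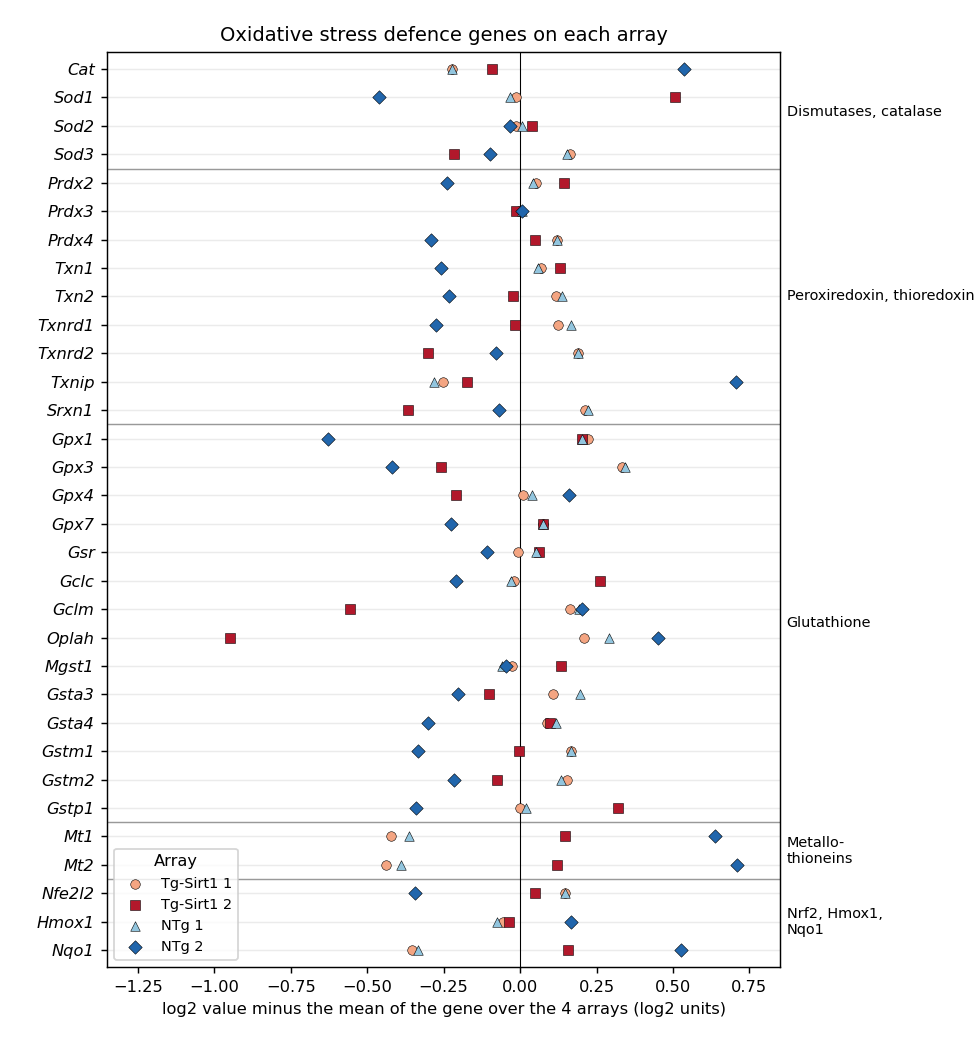
Each row is 1 of the 32 measured genes, grouped by role, and the horizontal axis is the log2 value on an array minus the mean of that gene over the 4 arrays, in log2 units. The symbols of the array labelled Tg-Sirt1 1 and of NTg 1 nearly coincide, differing by 0.09 at most, while NTg 2 and Tg-Sirt1 2 lie apart from them, with Oplah on Tg-Sirt1 2 farthest to the left.

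At the probe sets used, the 2 metallothionein genes carried the largest differences of NTg 2 from the pair among the 32 genes. Metallothioneins are small cysteine-rich proteins that bind zinc and copper and scavenge radicals, and Mt1 and Mt2 lie next to each other. Mt1 read 11.45 and 12.02 in Tg-Sirt1, against 11.51 and 12.51 in NTg. Mt2 read 9.29 and 9.85 in Tg-Sirt1, against 9.34 and 10.44 in NTg. In both genes NTg 2 was highest, Tg-Sirt1 2 came next and the near-identical pair was lowest, so the labels overlapped. NTg 2 lay 1.03 (Mt1) and 1.12 (Mt2) log2 units above the mean of the pair, and Tg-Sirt1 2 lay 0.54 above it in both. The log2 fold changes were -0.28 ± 0.36 (SE) for Mt1 and -0.32 ± 0.38 for Mt2, and without NTg 2 they were 0.23 and 0.23. The dimmer Mt1 probe set kept the same order of the distinct profiles, with 6.98 and 7.16 in Tg-Sirt1 and 6.95 and 7.35 in NTg, and its log2 fold change was -0.08. There NTg 2 lay only 0.385 and Tg-Sirt1 2 only 0.195 above the mean of the pair. Whether the Mt1 and Mt2 probe sets share signal was not determined.

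The promoters of this pair of genes are shown because the 2 genes had the same order over the arrays and because metal-responsive transcription acts through short elements near the start site. The sequences are those of RefSeq on GRCm38.p6, 250 bases before to 50 after the start, on the plus strand, and the capitals mark matches to the core of the metal response element, TGCACNC or TGCGCNC, on either strand. Positions count from the start annotated in RefSeq, with 1 as the first base of the annotated transcript. The start used in these hearts was not determined.
Mt1 (chr8:94178839-94179138): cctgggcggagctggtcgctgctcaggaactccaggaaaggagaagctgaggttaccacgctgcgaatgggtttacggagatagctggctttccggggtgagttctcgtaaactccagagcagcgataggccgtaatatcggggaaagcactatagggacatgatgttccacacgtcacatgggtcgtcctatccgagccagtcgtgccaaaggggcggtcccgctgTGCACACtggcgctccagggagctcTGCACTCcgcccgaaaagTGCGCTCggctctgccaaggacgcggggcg
Mt2 (chr8:94172368-94172667): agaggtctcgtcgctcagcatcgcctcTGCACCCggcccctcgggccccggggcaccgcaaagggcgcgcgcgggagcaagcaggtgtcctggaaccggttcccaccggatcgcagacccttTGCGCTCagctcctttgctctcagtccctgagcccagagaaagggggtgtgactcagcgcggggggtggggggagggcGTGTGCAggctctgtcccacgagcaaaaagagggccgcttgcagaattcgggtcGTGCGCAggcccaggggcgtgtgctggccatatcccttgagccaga
The Mt1 window held 3 matches, which began at -23, 3 and 21, and the Mt2 window held 4, at -223, -128, -50 and 5. The core was found in 10 of 35 promoter windows (28.6%) and in 25.7% of all 32851 windows. The 35 windows belong to 28 of the listed genes, some of which have several. The 10 windows belong to 9 genes, with 1 Gstm1 match lying in overlapping windows. A match is a description of the letters and not a site of binding.

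**Figure D2:**
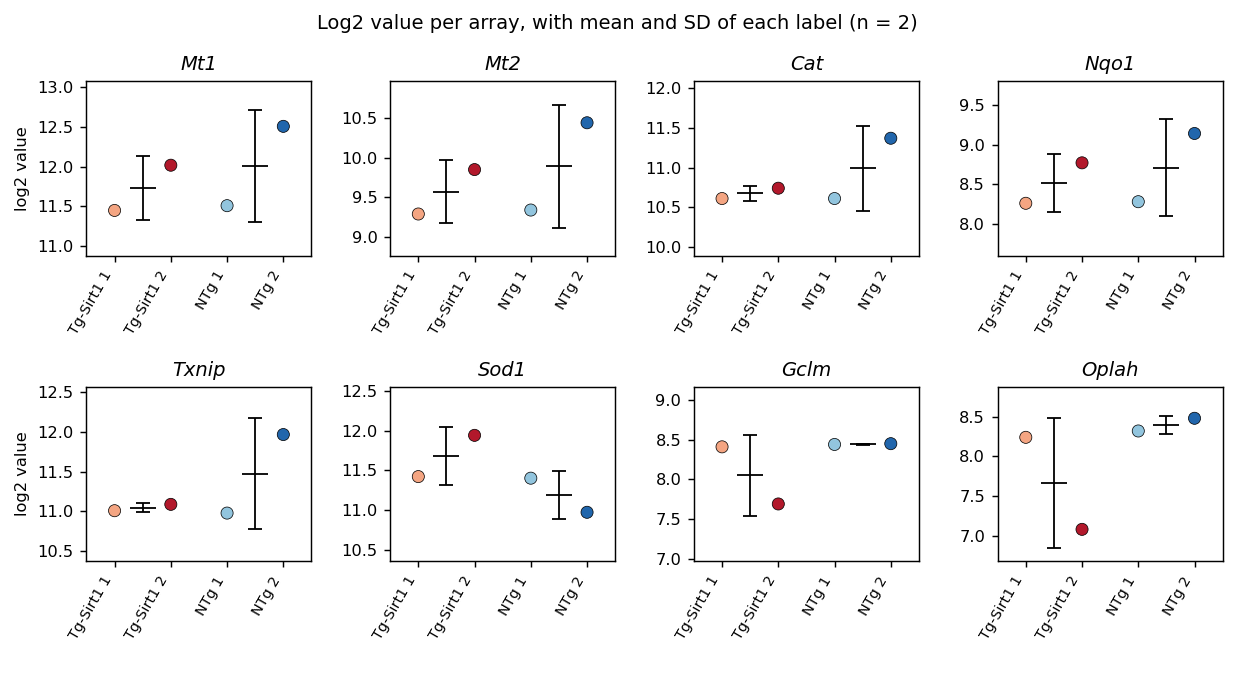
The 8 panels show the log2 value of a gene on each array, with the arrays labelled Tg-Sirt1 on the left and NTg on the right, and the black bars give the mean and SD of each label (n = 2). Every panel spans the same number of log2 units. Mt1, Mt2, Cat, Nqo1 and Txnip were highest on NTg 2, Gclm and Oplah were lowest on Tg-Sirt1 2, and Sod1 was highest on Tg-Sirt1 2.

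Among dismutases and catalase, Sod1 and Cat spanned the widest ranges over the arrays and Sod2 the narrowest, at the probe sets used. Sod1, the cytosolic copper-zinc dismutase, read 11.42 and 11.94 in Tg-Sirt1, against 11.40 and 10.97 in NTg. Both Tg-Sirt1 arrays were above both NTg arrays, the lower of them by 0.02 log2 units only. Sod1 averaged 11.68 ± 0.37 in Tg-Sirt1 and 11.19 ± 0.30 in NTg (SD, n = 2 each). Its log2 fold change was 0.50, with a 95% confidence interval from -0.09 to 1.08, and its unadjusted limma p of 0.0837, the lowest of the 32 genes, became 0.994 after adjustment. It was 0.28 without NTg 2 and 0.23 without Tg-Sirt1 2. The 4 dimmer Sod1 probe sets did not share one pattern: their log2 fold changes were 0.08, -0.18, -0.24 and 0.40.

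Cat, the peroxisomal catalase, was high on NTg 2 alone. Its values were 10.61 and 10.74 in Tg-Sirt1, against 10.61 and 11.37 in NTg, and a second Cat probe set read 10.38 and 10.51 in Tg-Sirt1, against 10.38 and 11 in NTg. The log2 fold change of Cat was -0.31 ± 0.26 (SE), and it was 0.06 without NTg 2. Sod2, the manganese dismutase of mitochondria, read 12.35 to 12.42 on the 4 arrays. Its other probe sets spanned wider ranges. A nearly as bright one read 12.42 and 12.38 in Tg-Sirt1, against 12.44 and 12.19 in NTg. Sod3, the extracellular dismutase, read 9.11 and 8.73 in Tg-Sirt1, against 9.10 and 8.85 in NTg, so the value was lower on the 2 arrays outside the pair.

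The Sod1 and Gclm promoters are shown because, of the windows that hold the antioxidant response element core once or more, they belong to the genes outside the metallothioneins with the widest ranges over the arrays, 0.97 and 0.76 log2 units. Both sequences are on the plus strand of GRCm38.p6 from RefSeq, and the capitals mark this core, TGACNNNGC, which in both lies on the opposite strand.
Sod1 (chr16:90220512-90220811): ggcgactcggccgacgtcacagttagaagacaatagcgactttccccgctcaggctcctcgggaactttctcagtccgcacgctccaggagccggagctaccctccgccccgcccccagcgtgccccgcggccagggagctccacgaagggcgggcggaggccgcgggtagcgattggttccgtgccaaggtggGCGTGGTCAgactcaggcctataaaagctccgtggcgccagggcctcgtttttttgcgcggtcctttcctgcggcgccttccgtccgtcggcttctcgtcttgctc
Gclm (chr3:122245307-122245606): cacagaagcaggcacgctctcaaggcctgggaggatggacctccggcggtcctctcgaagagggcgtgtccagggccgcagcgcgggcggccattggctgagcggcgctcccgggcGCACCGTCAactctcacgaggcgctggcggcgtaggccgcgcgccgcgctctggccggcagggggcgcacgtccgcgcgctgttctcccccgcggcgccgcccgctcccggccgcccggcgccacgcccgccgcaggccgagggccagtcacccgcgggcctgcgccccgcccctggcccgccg
The match began at -56 in Sod1 and at -134 in Gclm, where it overlaps a metal response element core that begins at -138. This core was found in 9 of the same 35 windows (25.7%), which belong to 28 of the listed genes, against 12.4% of all 32851 windows. Of the windows with the core, 1 was that of Mt2. Oplah, with the widest range at the probe sets used, had no window. The windows of Txnip, Nqo1, Gpx1, Gpx3 and Cat, which spanned 0.76 to 0.99 log2 units, held none. At their brightest probe sets the 2 genes with the core shown here went different ways on Tg-Sirt1 2. Sod1 lay 0.53 log2 units above the mean of the pair and Gclm 0.73 below it. A dimmer Gclm probe set lay 0.535 above that mean, and the dimmer Sod1 probe sets ran from -0.345 to 0.905.

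In the peroxiredoxin and thioredoxin group, Txnip had the widest range and 5 of the 9 members read lowest on NTg 2, as did 50.1% of the genes with a mean signal above the median of all probe sets. Txnip, which binds thioredoxin and restrains it and which glucose induces, read 11.01 and 11.09 in Tg-Sirt1, against 10.98 and 11.97 in NTg. Its log2 fold change was -0.42 ± 0.32 (SE), and it was 0.07 without NTg 2. A second Txnip probe set was also highest on NTg 2 but lowest on Tg-Sirt1 2, with 9.98 and 8.71 in Tg-Sirt1 and 9.97 and 10.53 in NTg.

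The peroxidases of this group differed by less. Prdx2, a cytosolic peroxiredoxin abundant in red cells, read 12.16 and 12.25 in Tg-Sirt1, against 12.15 and 11.87 in NTg. The erythroid markers averaged 6.60 and 6.69 in Tg-Sirt1, against 6.57 and 6.58 in NTg, over 4 of 6 markers measured. These markers did not move together. Alas2 was lowest on NTg 2, with 8.38 and 8.54 in Tg-Sirt1 and 8.46 and 8 in NTg. Hba-a1, which read only 4.43 to 4.7, and Epb42 were highest on NTg 2, and Slc4a1 was highest on Tg-Sirt1 2. Prdx3, the mitochondrial peroxiredoxin, was the steadiest of the 32 genes, at 11.60 to 11.62. Prdx4, the peroxiredoxin of the endoplasmic reticulum, read 9.87 and 9.80 in Tg-Sirt1, against 9.87 and 9.46 in NTg. Sulfiredoxin, Srxn1, which repairs overoxidised peroxiredoxins, was lowest on Tg-Sirt1 2, with 7.62 and 7.04 in Tg-Sirt1 and 7.63 and 7.34 in NTg. Its 3 other probe sets were also lowest on Tg-Sirt1 2, by less.

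At their brightest probe sets the thioredoxins and Txnrd1 read lowest on NTg 2 and Txnrd2 on Tg-Sirt1 2, but dimmer probe sets differed. The cytosolic thioredoxin Txn1 read 11.08 and 11.14 in Tg-Sirt1, against 11.07 and 10.75 in NTg. The mitochondrial thioredoxin Txn2 read 12.02 and 11.88 in Tg-Sirt1, against 12.04 and 11.67 in NTg. Txnrd1, the cytosolic reductase, read 9.36 and 9.22 in Tg-Sirt1, against 9.40 and 8.96 in NTg. The mitochondrial reductase Txnrd2 gave 8.85 and 8.36 in Tg-Sirt1 and 8.85 and 8.58 in NTg. A dimmer Txn1 probe set went the other way, with 8.75 and 8.99 in Tg-Sirt1 and 8.61 and 9.58 in NTg. Both dimmer Txnrd1 probe sets were highest on NTg 2, at 0.42 and 0.28 above the mean of the pair. Of the 3 dimmer Txnrd2 probe sets, 1 lay 0.33 above that mean on Tg-Sirt1 2, and the others lay below it. The 9 log2 fold changes of the group ran from -0.42 to 0.20 with a median of 0.09.

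At the probe sets used, the glutathione group held the widest range of the 32 genes, 1.4 log2 units for Oplah. Oplah encodes 5-oxoprolinase, which returns oxoproline to glutamate in the glutathione cycle. Oplah read 8.24 and 7.08 in Tg-Sirt1, against 8.32 and 8.48 in NTg. The low value was that of Tg-Sirt1 2 alone, 1.20 log2 units below the mean of the pair. The log2 fold change was -0.74 with a 95% confidence interval from -1.64 to 0.16 (limma unadjusted p = 0.0897, adjusted p = 0.994), and it was -0.16 without Tg-Sirt1 2.

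Gclm, the modifier subunit of the enzyme that begins glutathione synthesis, was low on the same array. Its values were 8.41 and 7.69 in Tg-Sirt1, against 8.44 and 8.45 in NTg, and its log2 fold change of -0.39 ± 0.25 (SE) was -0.04 without Tg-Sirt1 2. A dimmer Gclm probe set was highest on Tg-Sirt1 2 instead, with 6.19 and 6.75 in Tg-Sirt1 and 6.24 and 6.28 in NTg. Gclc, the catalytic subunit of that enzyme, was highest on Tg-Sirt1 2, with 8.46 and 8.74 in Tg-Sirt1 and 8.45 and 8.27 in NTg, while its dimmer probe set was lowest there at 6.96. The 2 subunits thus differed in direction on Tg-Sirt1 2 at their brighter probe sets, and each had a second probe set of the opposite direction. The control probe sets at the 3' end exceeded those at the 5' end, in log2 units, by 1.25 and 1.92 in Tg-Sirt1 for Actb, against 1.22 and 1.44 in NTg. For Gapdh the differences were 0.19 and 1.34 in Tg-Sirt1, against 0.18 and 0.69 in NTg, so both were largest on Tg-Sirt1 2. This difference grows as the 5' probes lose signal, and its part in the low values of Tg-Sirt1 2 was not tested.

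Glutathione peroxidases differed on NTg 2 and on Tg-Sirt1 2. Gpx1, the selenium-dependent peroxidase of the cytosol and mitochondria, read 11.02 and 11 in Tg-Sirt1, against 11 and 10.17 in NTg. Its log2 fold change was 0.42 ± 0.28 (SE) with all arrays and 0.01 without NTg 2. Gpx3, the secreted peroxidase of plasma, was high on the pair and low on both other arrays, with 12.48 and 11.89 in Tg-Sirt1 and 12.49 and 11.73 in NTg. Its log2 fold change of 0.08 therefore hid a distance of 0.60 between Tg-Sirt1 2 and the mean of the pair. Gpx4, which reduces lipid hydroperoxides and guards against ferroptosis, read 12.32 and 12.10 in Tg-Sirt1, against 12.35 and 12.47 in NTg. A nearly as bright Gpx4 probe set read 12.38 and 11.88 in Tg-Sirt1, against 12.39 and 12.18 in NTg. Both were lowest on Tg-Sirt1 2, but NTg 2 was above the pair at the first and below it at the second. Gpx7, of the endoplasmic reticulum, read 7.34 on both Tg-Sirt1 arrays and on NTg 1, and 7.04 on NTg 2.

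At their brightest probe sets, glutathione reductase and the transferases other than Mgst1 were lowest on NTg 2. In 5 of the transferases NTg 2 lay -0.50 to -0.35 log2 units from the mean of the pair. Gsr, which regenerates reduced glutathione, read 8.17 and 8.24 in Tg-Sirt1, against 8.23 and 8.07 in NTg. The transferases conjugate glutathione to electrophiles, and Gstp1 among them had the largest log2 fold change, 0.32 ± 0.20 (SE), with 0.14 without NTg 2 and 0.16 without Tg-Sirt1 2, from 12.23 and 12.55 in Tg-Sirt1 and 12.25 and 11.89 in NTg. Gstm1 read 11.77 and 11.60 in Tg-Sirt1, against 11.77 and 11.27 in NTg. Gstm2 read 10.22 and 9.99 in Tg-Sirt1, against 10.20 and 9.85 in NTg. Gsta4, which acts on the lipid peroxidation product hydroxynonenal, read 10.87 and 10.88 in Tg-Sirt1, against 10.90 and 10.48 in NTg. Gsta3 read 6.64 and 6.43 in Tg-Sirt1, against 6.73 and 6.33 in NTg, and the microsomal transferase Mgst1 read 10.76 and 10.92 in Tg-Sirt1, against 10.73 and 10.74 in NTg. Dimmer probe sets differed in part. That of Gsr was lowest on Tg-Sirt1 2, at 7.37 against 7.51 on NTg 2. That of Gsta3 was lowest on the pair, with 6.01 and 6.7 in Tg-Sirt1 and 6.07 and 6.24 in NTg. A dimmer Gstm1 probe set was also lowest on the pair, with 8.7 and 8.99 in Tg-Sirt1 and 8.7 and 8.76 in NTg. The other Gstm1 probe sets were lowest on NTg 2. Transferases of one class are alike in sequence, so their probe sets may share signal. Of the 14 genes of the group 10 (71.4%) were lowest on NTg 2, against the 50.1% of brighter genes given above, and 3 (Gclm, Gpx4 and Oplah) were lowest on Tg-Sirt1 2.

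Nfe2l2 and the 2 stress-induced enzymes that it is known to drive differed in their order over the arrays. Nfe2l2, the gene of Nrf2, read 10.52 and 10.42 in Tg-Sirt1, against 10.52 and 10.03 in NTg, so NTg 2 was lowest. Nqo1, a quinone reductase, read 8.26 and 8.77 in Tg-Sirt1, against 8.28 and 9.14 in NTg, so NTg 2 was highest, as for the metallothioneins. Hmox1, which breaks down heme, read 7.15 and 7.17 in Tg-Sirt1, against 7.13 and 7.37 in NTg. The log2 fold changes were 0.20 ± 0.20 (SE) for Nfe2l2, -0.20 ± 0.32 for Nqo1 and -0.09 ± 0.15 for Hmox1, and without NTg 2 they were -0.05, 0.23 and 0.03.

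**Figure D3:**
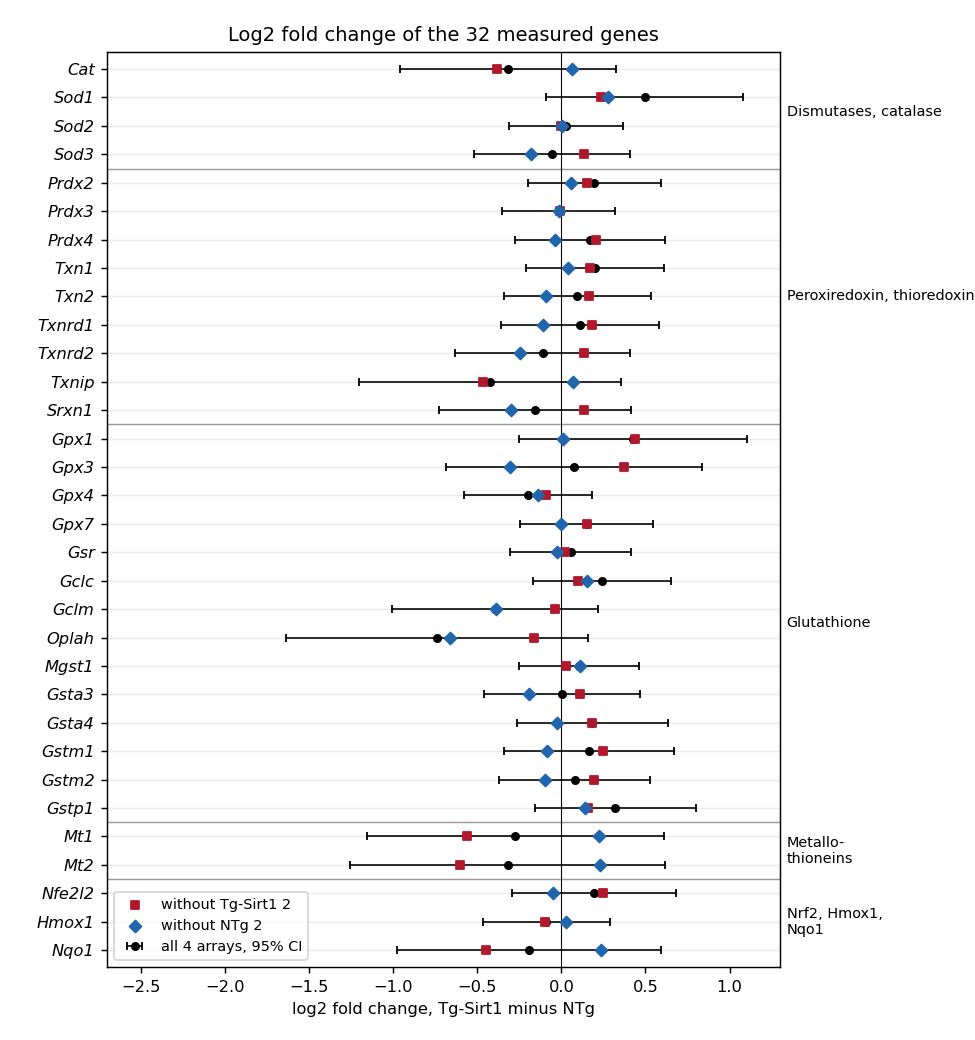
The horizontal axis is the log2 fold change, Tg-Sirt1 minus NTg, for each of the 32 genes; black points with bars give the limma estimate from all 4 arrays with its 95% confidence interval, red squares the value without Tg-Sirt1 2 and blue diamonds the value without NTg 2. All intervals include 0, from Oplah (-1.64 to 0.16) to Gpx1 (-0.25 to 1.1).

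The separation of the labels was slight. Both Tg-Sirt1 arrays were above both NTg arrays in 5 of the 32 genes (15.6%, against 11.4% of all genes), namely Sod1, Prdx2, Txn1, Gclc and Mgst1. They were below in 4 (12.5%, against 9.3% of all genes), namely Prdx3, Gpx4, Gclm and Oplah. In each of the 9 the near-identical pair differed by 0.08 log2 units or less. The sign of the log2 fold change was never turned in any of the fits for 9 of the 32 genes (Sod1, Prdx2, Gpx1, Gpx4, Gpx7, Gclm, Oplah, Mgst1 and Gstp1), with Gpx7 at 0 without NTg 2. All fits reuse the same arrays, the near-identical pair among them, so an unturned sign is not independent support for a difference between the labels. The share of all genes with an unturned sign was not counted.

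Differences between single arrays have no test and are given as values, counted from a difference of 0.5 log2 units. Tg-Sirt1 2 was at least this much above NTg 2 in 3 of the 32 genes (9.38%, against 12.8% of all genes): Sod1 by 0.97, Gpx1 by 0.83 and Gstp1 by 0.66. It was at least this much below NTg 2 in 5 (15.6%, against 4.56% of all genes): Oplah (-1.4), Txnip (-0.88), Gclm (-0.76), Cat (-0.63) and Mt2 (-0.59). The 3 higher genes were lowest on NTg 2, whereas of the 5 lower ones all were highest on NTg 2, and Gclm and Oplah were also lowest on Tg-Sirt1 2.

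Set against the mean of the near-identical pair, Tg-Sirt1 2 was 0.5 log2 units or more above it in 4 genes (12.5%, against 3.18% of all genes): Mt1, Mt2, Sod1 and Nqo1, by 0.50 to 0.54. It was below by as much in 4 (12.5%, against 3.55%): Oplah, Gclm, Gpx3 and Srxn1, with differences of -1.20 to -0.58. NTg 2 was above the same mean in 5 genes (15.6%, against 3.75%): Mt2, Mt1, Txnip, Nqo1 and Cat, by 0.76 to 1.12. It was below in 3 (9.38%, against 8.89%): Gpx1 (-0.84), Gpx3 (-0.76) and Gstm1 (-0.50). Within the pair itself the count was 0 of the 32, against 0% of all genes. These comparisons share arrays, and the genes were listed with earlier results of these data known. All 32 genes had a mean signal above the median over all probe sets, and the shares of such brighter genes were not counted here. The median absolute difference of NTg 2 from the pair was 0.35 over the 32, 0.23 over brighter genes and 0.205 over all genes. For Tg-Sirt1 2 these medians were 0.1725, 0.17 and 0.145.

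**Figure D4:**
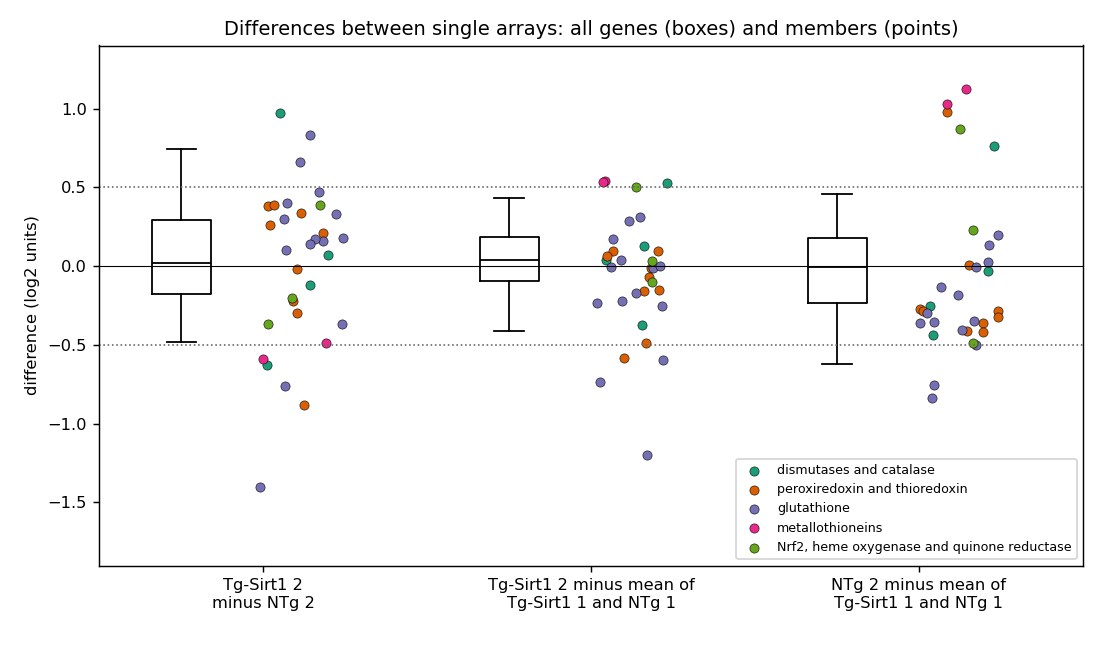
The vertical axis is a difference in log2 units between single arrays or from the mean of the array labelled Tg-Sirt1 1 and NTg 1. Boxes give the median and quartiles of all 18193 genes with whiskers at the 5th and 95th percentiles, points are the 32 genes coloured by group, and dotted lines mark 0.5 log2 units. On NTg 2 the 2 metallothioneins, Txnip, Nqo1 and Cat lie at 0.76 to 1.12, beyond the upper whisker at 0.46, and Oplah lies lowest on Tg-Sirt1 2.

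NTg 2 was the array on which most of these genes read lowest, but bright genes in general did the same. It was strictly lowest in 18 of the 32 genes (56.3%), against 37.9% of all genes and 50.1% of the 11967 genes with a mean signal above the median over all probe sets, to which all 32 belong. It was strictly highest in 9 (28.1%, against 34.3% of all genes and 24.1% of those above the median signal). Tg-Sirt1 2 was strictly highest in 8 (25%, against 35.8% and 41.1%). It was strictly lowest in 7 (21.9%, against 23.2% and 21.9%). The median difference of NTg 2 from the mean of the pair was -0.28 log2 units over the 32 genes and -0.12 over the genes above the median signal. After a second quantile normalization these medians were -0.07 and 0.03, and 14 of the 32 genes were lowest on NTg 2, against 33.2% of all genes and 35.2% of those above the median signal. On that scale Mt1 was 1.17, Mt2 1.36, Txnip 1.17, Nqo1 1.08 and Cat 0.96 above the mean of the pair, farther than on the deposited scale. After centring on the array medians they were nearer to it, at 0.96 for Mt1, 1.06 for Mt2, 0.91 for Txnip, 0.81 for Nqo1 and 0.69 for Cat.

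Markers of other cell types also differed between the arrays. The fibroblast mean was lowest and the neutrophil mean highest on NTg 2. The adipocyte and endothelial means were lower on both arrays outside the pair. All 4 measured adipocyte markers lay below the pair on both, but Fabp4 by only 0.035 on Tg-Sirt1 2 and 0.005 on NTg 2. On each of these arrays 5 of the 6 endothelial markers lay below the mean of the pair. Tek lay 0.29 above it on Tg-Sirt1 2, and Cdh5 0.025 above it on NTg 2. Over 6 of 6 fibroblast markers (Pdgfra, Col1a1, Col1a2, Dcn, Lum and Tcf21) the mean log2 value was 11.07 and 10.70 in Tg-Sirt1, against 11.07 and 10.15 in NTg. The 4 of 6 neutrophil markers measured averaged 6.36 and 6.50 in Tg-Sirt1, against 6.44 and 7.45 in NTg, and the 4 of 6 adipocyte markers measured 8.10 and 7.46 in Tg-Sirt1, against 8.05 and 7.39 in NTg. Macrophage markers (6 of 6) averaged 8.88 and 8.74 in Tg-Sirt1, against 8.87 and 8.62 in NTg, endothelial markers (6 of 6) 9.45 and 9.09 in Tg-Sirt1, against 9.46 and 9.10 in NTg, and liver markers (5 of 6) 6.74 and 6.68 in Tg-Sirt1, against 6.68 and 6.69 in NTg. The skeletal muscle list (6 of 6) averaged 6.91 and 6.76 in Tg-Sirt1, against 6.95 and 7.79 in NTg, where Acta1, which heart muscle also expresses, read 12.17 on NTg 2. RMA values have no zero and no detection calls were used, so absent markers cannot be told from dim ones. The part of these cell types in the differences above was not tested.

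Other genes of redox metabolism, which are not on the list of 35, gave no call either. Of 57 such genes, 54 were measured, 30 had the higher and 23 the lower mean in Tg-Sirt1, and their median log2 fold change was 0.03. None of the 54 passed in limma (0 also had an unadjusted p under 0.05). Among the regulators of Nrf2, the adaptor Keap1, which targets Nrf2 for degradation, read 8.71 and 8.02 in Tg-Sirt1, against 8.71 and 8.78 in NTg, and the related factor Nfe2l1 read 10.88 and 10.05 in Tg-Sirt1, against 10.88 and 10.75 in NTg. These were low on Tg-Sirt1 2, like Oplah and the brighter Gclm probe set. Blvrb, a biliverdin reductase, read 8.56 and 8.70 in Tg-Sirt1, against 8.56 and 7.44 in NTg.

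Of the 7 NADPH supply genes measured, 3 had the higher and 4 the lower mean in Tg-Sirt1, and their median absolute difference from the pair was 0.105 on Tg-Sirt1 2 and 0.10 on NTg 2. Tkt, the transketolase of the pentose phosphate pathway, read 9.97 and 10.01 in Tg-Sirt1, against 9.96 and 9.10 in NTg, and its log2 fold change of 0.46 was 0.14 without _x_at and _s_at probe sets. The other 2 with the largest log2 fold changes were Taldo1 at 0.20 and Idh2 at -0.11. The mitochondrial carrier gene Ucp3 read 8.13 and 8.35 in Tg-Sirt1, against 8.23 and 9.40 in NTg. The stress-inducible sestrin gene Sesn3 read 8.92 and 9.39 in Tg-Sirt1, against 8.93 and 8.10 in NTg, and the peroxidase gene Gpx8 9.14 and 9.28 in Tg-Sirt1, against 9.17 and 8.40 in NTg. The 7 genes of oxidant production had log2 fold changes from -0.19 for Xdh to 0.19 for Cyba. Nox4, a hydrogen peroxide producing oxidase, was low on both arrays outside the pair, at 7.07 and 6.24 in Tg-Sirt1, against 7.01 and 6.11 in NTg, and was chosen for mention after its values were seen.

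Probe sets of one gene did not always share a direction. The 32 genes had 36 further probe sets, spread over 21 genes, and 12 of these had a log2 fold change opposite in sign to that of the probe set used. One of these, of Sod2, read 7.15 and 6.55 in Tg-Sirt1 and 7.30 and 7.23 in NTg. RMA damps differences of dim probe sets, and the part of the transcript that each probe set covers was not determined here.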

How the data were processed

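Mouse heart RNA was measured on 4 arrays, 2 labelled Tg-Sirt1 and 2 labelled NTg. The deposited values are log2 intensities, 1 per probe set and array, made with RMA and Affymetrix Expression Console, per the submitters' processing notes (versions and scanner files were not used here). RMA removes differences in total RNA and damps those of dim probe sets. Of 45101 probe sets, 64 controls were left out, 34945 had 1 gene symbol in the platform annotation, 34741 of these matched the RefSeq table of GRCm38.p6 by Entrez identifier, and the brightest probe set represented each of 18193 genes. The labels were compared with limma 3.58.1 in R 4.3.3 (lmFit and eBayes, two-sided, Benjamini-Hochberg over all genes, threshold 0.05), with 2 residual and 3.97 prior degrees of freedom. With 2 arrays per label, the smallest two-sided p of an exact permutation test is 0.333. The fit was tested on simulated data. The number of arrays limits the precision. The members and lists were chosen with earlier results of these data known, and all 35 genes listed were followed. Other redox genes were named by largest absolute log2 fold change, up to 3 per list.

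Promoter windows were taken from a table of RefSeq promoters, in which 28 of the 35 genes matched. Alternatives were a fit blocked on replicate number, fits without 1 array, the near-identical pair counted once under either label, normalization, an offset of 16 on the linear scale, a filter on dim genes, the variance prior and the choice of probe set. A second normalization of the order over arrays was added after seeing the data.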

Additional observations from a re-analysis of the deposited data

How the results depend on the processing

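No gene passed an adjusted p of 0.05 in limma in any of the fits (10 genes had an unadjusted p under 0.05 with all arrays, and 0 to 2603 in the alternatives). The unadjusted count was 2337 without NTg 1 and 5 without NTg 2, while leaving out a Tg-Sirt1 array gave 504 (array 1) and 0 (array 2). The lowest adjusted p of any of the 32 genes in an alternative was 0.333. Leaving out each array moved the median log2 fold change over the 32 genes between -0.02 and 0.17. With the near-identical pair counted once as Tg-Sirt1 it was 0.189, a value that rests on NTg 2 alone as the reference, and with the pair as NTg it was 0.04. It was -0.00125 after a second quantile normalization and -0.00792 with the mean over all probe sets. The median difference of NTg 2 from the pair was -0.0678 after a second quantile normalization, and -0.343 after centring, both added after seeing the data. Of 320 values of single genes under alternatives that kept all arrays or merged the pair, 16 had the other sign. With the pair counted once as Tg-Sirt1 these were Sod3 0.0675, Txnrd2 0.025, and with the pair as NTg Gpx3 -0.2175, Gsta3 -0.0775, Gstm2 -0.04, Mt1 0.025, Nqo1 0.065. After a second quantile normalization they were Sod2 -0.04437, Gsr -0.006875, Gstm2 -0.01812, after centring Prdx3 0.02, with the mean over all probe sets Sod2 -0.0525, Txn1 -0.0125, Txn2 -0.003333, Txnrd1 -0.125, and without _x_at and _s_at probe sets Gclc -0.05. The cause was not tested. Over the fits without 1 array, 19 genes took both signs: Cat -0.695 to 0.065, Sod3 -0.245 to 0.135, Prdx4 -0.035 to 0.375, Txn2 -0.09 to 0.28, Txnrd1 -0.11 to 0.33, Txnrd2 -0.355 to 0.135, Txnip -0.92 to 0.07, Srxn1 -0.445 to 0.135, Gpx3 -0.305 to 0.455, Gsr -0.025 to 0.135, Gsta3 -0.195 to 0.205, Gsta4 -0.025 to 0.395, Gstm1 -0.085 to 0.415, Gstm2 -0.095 to 0.255, Mt1 -0.775 to 0.225, Mt2 -0.87 to 0.23, Nfe2l2 -0.05 to 0.44, Hmox1 -0.21 to 0.03, Nqo1 -0.625 to 0.235. Arrays with the same number are not said to share a litter or day. The deviations of same-numbered arrays from their label means correlated at 0.293. The near-identical pair holds array 1 of each label and so enters both sides of this correlation, which therefore cannot show whether arrays were paired. The fit with the replicate number as a block called 0 genes (9 with an unadjusted p under 0.05), with a median of 0.065 over the 32 genes. Depth is not defined for arrays, and signal over background was not used here.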
